A study of Mus musculus with 10 samples.

Results

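The ADAMTS proteases, the ADAMTS-like proteins and the thrombospondins are secreted proteins of the extracellular matrix that share a module, the thrombospondin type 1 repeat, or belong to the thrombospondin family itself. Their RNA was examined in lung tumors and liver metastases of mice with small cell lung cancer. The genes were taken by symbol: every Adamts and Adamtsl gene with a number, Thbs1 to Thbs4, and Comp. This gave 29 of the 35288 gene identifiers measured, of which 19 encode proteases, 5 ADAMTS-like proteins and 5 thrombospondins.

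The tumors came from 2 genotypes, both built on the RPR2 model, a lung cancer model made by deletion of Rb1, Trp53 and Rbl2. RPR2;Nfibf/f mice also carry floxed Nfib, the gene of a nuclear factor I transcription factor, and are called Nfib-floxed here. The groups were Nfib-floxed liver metastases (n = 2, mice JHK1398 and JHK1399), RPR2 liver metastases (n = 2, JHK1373 and JHK1394), Nfib-floxed lung tumors (n = 3, JHK997, JHK1398 and JHK1399) and RPR2 lung tumors (n = 3, JHK1373, JHK1394 and JHK1548). Each metastasis thus came from a mouse that also gave a lung tumor, and the 10 libraries from 6 mice. The sources used here do not give the age of the mice, the promoter that drives Cre or the part of Nfib that is floxed, and each library holds dissected tissue, with whatever host cells it contained.

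ADAMTS proteases carry a metalloprotease domain followed by thrombospondin repeats that bind matrix. They trim procollagens, cleave proteoglycans such as versican and aggrecan, cut von Willebrand factor, or act on fibrillin microfibrils. ADAMTS-like proteins have the repeats without the protease domain and sit on the same microfibrils. Thrombospondins are calcium-binding multimers: Thbs1 and Thbs2 form trimers, inhibit the growth of vessels and bind CD47 and CD36, while Thbs3, Thbs4 and Comp form pentamers and are best known from cartilage, tendon and muscle. In lung and liver, members of these families are made by fibroblasts, vessel walls, platelets and tumor cells.

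Values are TPM, which are transcript levels scaled for gene length and library total. TPM keeps no sequencing depth, so the depth behind each value is unknown. Changes were estimated with limma as a log2 difference ± standard error, between group means of log2(TPM + 1), which understates the change of genes at low levels, and a gene was called at a Benjamini-Hochberg adjusted p under 0.05 over the 15503 genes that averaged 1 TPM or more. Of the 29 genes, 17 reached that mean and were tested. This fit took both tumors of a mouse as independent samples. Where a comparison is given without a library that leaves a group with 1 sample, that sample was assumed to vary like the other groups. In bulk samples, fewer cells of a type and less RNA per cell cannot be told apart.

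Some libraries stood apart. The Nfib-floxed metastasis of JHK1398 was most like the RPR2 lung tumor of JHK1373 (Pearson r = 0.932 of log2(TPM + 1)), more than it was like the other Nfib-floxed metastasis (0.916). Summed over 8 hepatocyte markers it held 67.5 TPM, against 2065 TPM in the other Nfib-floxed metastasis and 6663 to 6825 TPM in the RPR2 metastases, so markers of the labelled organ were low in that library. The list of 9 neuroendocrine markers summed to 7601 and 60902 TPM in Nfib-floxed metastases, against 2419 and 3680 TPM in RPR2 metastases, and to 9152 to 74546 TPM in lung tumors. The RPR2 metastases were thus the lowest libraries in this sum, of which Calca made up 545 and 1410 TPM there and 5470 to 71946 TPM elsewhere. In RPR2 metastases against RPR2 lung tumors, 5 of the 9 genes were lower and 4 higher. None of the 9 was called in any of the 5 comparisons. Dll3 had 27.2 and 33.3 TPM and Ncam1 28.5 and 60.1 TPM in RPR2 metastases, the highest group means of these 2 genes. The marker Chga, which encodes chromogranin A, was present in all 10 libraries, at 126 to 863 TPM. Nfib itself had 46.1 and 41.3 TPM in Nfib-floxed metastases, against 62.8 and 643 TPM in RPR2 metastases, and 38.6, 38.01 and 26.5 TPM in Nfib-floxed lung tumors, against 85.3, 28.3 and 118 TPM in RPR2 lung tumors. A value for the whole gene checks the genotype labels little.

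The genes that made up the summed level of the family differed by group. All 29 genes together held 64.9 and 233 TPM in Nfib-floxed metastases and 192 and 194 TPM in RPR2 metastases. In the lung the sums were 206, 217 and 180 TPM in Nfib-floxed tumors and 247, 163 and 99.4 TPM in RPR2 tumors. Thbs4 and Adamts10 led in both RPR2 metastases, with 49.9% and 26.8% of the sum in JHK1373 and 35.5% and 37.1% in JHK1394. Elsewhere another gene led: Thbs1 in the Nfib-floxed metastasis of JHK1399 (58.3%) and in 4 of the 6 lung tumors (28.6% to 51.5%), Adamts5 in the Nfib-floxed metastasis of JHK1398 (20.8%), and Adamtsl2 in the lung tumors of JHK1398 (33.8%) and JHK1548 (23.4%).

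**Figure D1:**
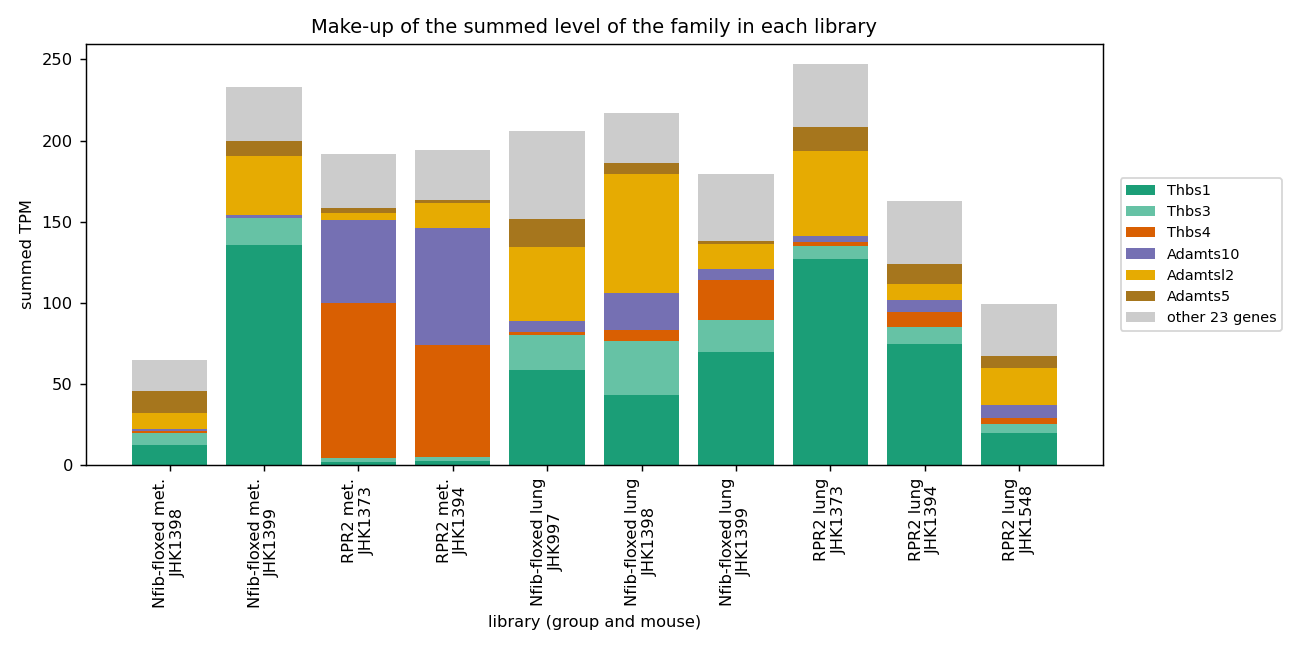
Summed TPM of the 29 genes in each of the 10 libraries (y axis), divided into 6 named genes and the rest. Thbs4 and Adamts10 fill most of the bars of the 2 RPR2 metastases, and Thbs1 and Adamtsl2 most of the bars of several lung tumors.

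Protease RNA summed to 31.9 and 40.03 TPM in Nfib-floxed metastases, against 79.6 and 98.6 TPM in RPR2 metastases. Lung tumors held 58.6, 44.4 and 40.9 TPM in Nfib-floxed and 50.0, 39.2 and 36.9 TPM in RPR2 mice. The RPR2 metastases were thus the highest libraries, and Adamts10 alone made up 51.3 and 72.0 TPM of their sums. ADAMTS-like genes summed to 11.2 and 39.3 TPM in Nfib-floxed and 6.18 and 19.6 TPM in RPR2 metastases, and thrombospondins to 21.8 and 153 TPM in Nfib-floxed and 106 and 75.8 TPM in RPR2 metastases. The genotypes overlapped in both of these classes.

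Among the thrombospondins, Thbs4 had the largest log2 difference between the metastases of the genotypes. Thbs4 (ENSMUSG00000021702, chromosome 13, 92751590 to 92794818, minus strand, GRCm38) encodes a pentameric thrombospondin of tendon and muscle matrix. Its level was 0.69 and 0.42 TPM in Nfib-floxed metastases, against 95.6 and 68.9 TPM in RPR2 metastases. In lung tumors it was 1.36, 6.78 and 25.1 TPM in Nfib-floxed and 2.54, 9.61 and 3.66 TPM in RPR2 tumors. The RPR2 metastases thus lay above all 8 other libraries and the Nfib-floxed metastases below them all. Thbs4 fell in Nfib-floxed against RPR2 metastases (log2 difference -5.73 ± 0.92, adjusted p = 0.0132). It rose in RPR2 metastases against RPR2 lung tumors (3.88 ± 0.84, adjusted p = 0.0235). The first call was lost without the Nfib-floxed metastasis of JHK1398 (adjusted p = 0.0674) or either RPR2 metastasis (0.0729 without JHK1373 and 0.0695 without JHK1394). The second was lost without the RPR2 metastasis of JHK1373 (0.172) or JHK1394 (0.124), without the RPR2 lung tumor of JHK1373 (0.0714) or JHK1548 (0.0635), and without the 2 lung tumors richest in club cell markers, JHK1394 and JHK1398 (0.0504).

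The tissue contrast of Thbs4 ran in opposite directions in the mice. The metastasis minus lung tumor difference was -2.20 and -4.20 on the log2 scale in Nfib-floxed mice JHK1398 and JHK1399, and 4.77 and 2.72 in RPR2 mice JHK1373 and JHK1394. The test of that difference between genotypes gave -6.21 ± 1.19 and missed the threshold (adjusted p = 0.0551). It passed without the Nfib-floxed lung tumor of JHK997 (-7.08, adjusted p = 0.0177).

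Promoter sequence is shown for the 2 genes called in any comparison that have a RefSeq promoter entry (GRCm38.p6), the 250 bases before the start, as a view of the sequence next to the genes that differed. Thbs4 (chr13:92794819-92795068, minus strand) and Adamts17 (chr7:66839485-66839734, plus strand) read as follows, 5′ to 3′, with a match of CAGCTG in capitals.
Thbs4: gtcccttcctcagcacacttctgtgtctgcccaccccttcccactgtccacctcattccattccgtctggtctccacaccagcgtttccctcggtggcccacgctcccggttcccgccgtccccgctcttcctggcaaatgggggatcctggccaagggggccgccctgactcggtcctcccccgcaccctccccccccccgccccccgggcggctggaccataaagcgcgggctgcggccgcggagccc
Adamts17: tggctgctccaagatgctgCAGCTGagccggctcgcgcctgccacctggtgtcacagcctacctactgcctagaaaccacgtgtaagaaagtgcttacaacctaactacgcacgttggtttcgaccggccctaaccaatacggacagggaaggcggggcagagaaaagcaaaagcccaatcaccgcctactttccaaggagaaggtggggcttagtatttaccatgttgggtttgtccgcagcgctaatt

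The Thbs4 window was 70.8% G and C with 19 CG dinucleotides, and that of Adamts17 54.4% with 13, where the medians over all promoters were 52.4% and 6. Motifs were searched on both strands: TTGGCA, the letters of a nuclear factor I recognition element, and CAGCTG and CAGATG, E-box letters that basic helix-loop-helix factors bind. CAGCTG was found in 13.0% of 32851 promoters and in 6 of the 17 entries that matched a gene of the family. TTGGCA was found in 12.3% of promoters and in those of Thbs2 and Thbs3, and CAGATG in 14.4% and in that of Thbs3. Neither printed window holds TTGGCA or CAGATG, and the single CAGCTG in the Adamts17 window overlaps no other motif searched. A match describes letters only.

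Thbs1 (ENSMUSG00000040152, chromosome 2, 118111876 to 118127133, plus strand), the trimeric family member that activates latent TGF-beta and inhibits angiogenesis, showed another order. Its level was 12.3 and 136 TPM in Nfib-floxed metastases, against 2.08 and 2.51 TPM in RPR2 metastases. Lung tumors held 58.8, 42.9 and 69.8 TPM in Nfib-floxed and 127, 74.6 and 19.9 TPM in RPR2 mice. The RPR2 metastases lay below every other library. Thbs1 fell in RPR2 metastases against RPR2 lung tumors (-4.16 ± 0.91, adjusted p = 0.0236). The genotype difference in metastases, 3.70 ± 0.99, did not pass (adjusted p = 0.0933), and the Nfib-floxed metastases differed widely from each other. It passed without the library of JHK1398 (5.38, adjusted p = 0.0275). The call in RPR2 mice was lost without the RPR2 metastasis of JHK1373 (0.148) or JHK1394 (0.135), without the RPR2 lung tumor of JHK1373 (0.0698) or JHK1394 (0.0811), and without both lung tumors rich in club cell markers (0.1003).

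Thbs3, a pentameric thrombospondin of the growth plate, had 7.67 and 16.4 TPM in Nfib-floxed metastases, against 2.04 and 2.54 TPM in RPR2 metastases. In the lung it had 21.6, 33.7 and 19.3 TPM in Nfib-floxed tumors, against 7.79, 10.3 and 5.36 TPM in RPR2 tumors. In each tissue the Nfib-floxed libraries were all above the RPR2 ones. Neither difference passed: 1.90 ± 0.50 in metastases (adjusted p = 0.0842) and 1.55 ± 0.40 in lung tumors (adjusted p = 0.595). The span of Thbs3 overlaps that of Mtx1 on the opposite strand, and whether their exons overlap was not examined. Without stranded counts, reads from any sequence that both share cannot be told apart. Adamts4, Adamts7 and Adamts9 also overlap coding genes on the opposite strand. Thbs1 and Adamts17, both called, overlap opposite-strand genes not annotated as coding, as do Adamts2, Adamts3, Adamts8, Adamts9, Adamts16 and Adamtsl1. Mtx1 stood at 80.6 to 109 TPM in all libraries.

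Thbs2, the other trimeric member, had 0.71 and 0.81 TPM in Nfib-floxed and 0.88 and 1.38 TPM in RPR2 metastases. Lung tumors ranged more widely, at 1.63 to 11.2 TPM in Nfib-floxed and 0.83 to 4.22 TPM in RPR2 mice. Comp, the cartilage oligomeric matrix protein, exceeded 5 TPM in 1 library, the RPR2 metastasis of JHK1373 (5.12 TPM), where the other RPR2 metastasis had 0.48 TPM. Neither gene was called in any comparison.

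**Figure D2:**
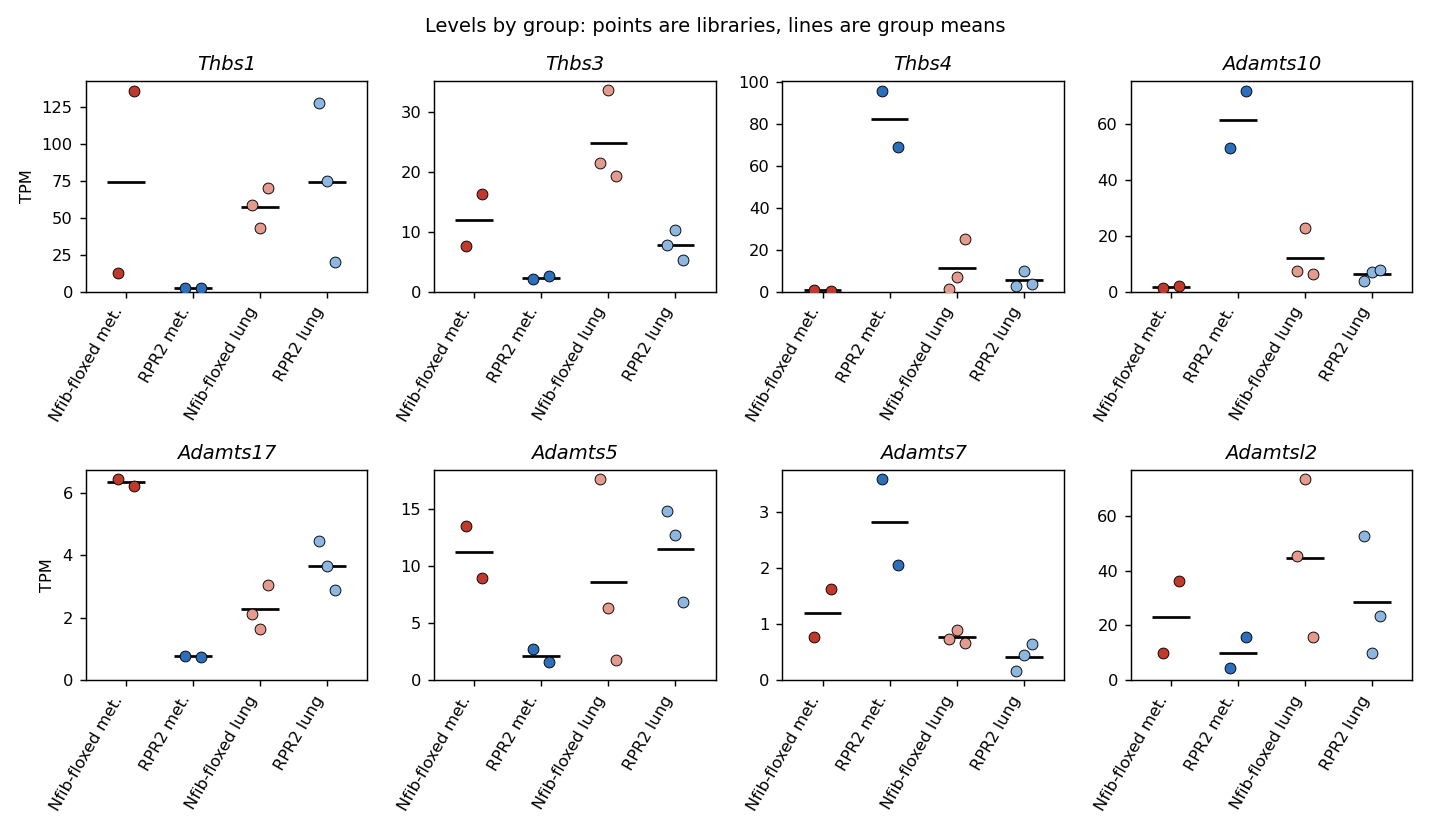
TPM of leading genes of the family in each library, on a linear axis, by group, with lines at group means. Thbs4 and Adamts10 have RPR2 metastases at the top and Nfib-floxed metastases at the bottom, and for Adamts17 the order of these groups is turned round.

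Of the proteases linked to fibrillin microfibrils, Adamts10 and Adamts17 were called and moved in opposite directions. Adamts10 (ENSMUSG00000024299, chromosome 17, 33524204 to 33553782, plus strand) and Adamts17 (chromosome 7, 66839735 to 67153171, plus strand) are both genes whose mutation in people causes Weill-Marchesani syndromes, disorders of connective tissue and the lens. Adamts10 had 1.25 and 1.80 TPM in Nfib-floxed metastases, against 51.3 and 72.0 TPM in RPR2 metastases. In the lung it had 7.29, 23.0 and 6.34 TPM in Nfib-floxed tumors, against 3.80, 7.17 and 7.83 TPM in RPR2 tumors. As with Thbs4, RPR2 metastases were the highest libraries and Nfib-floxed metastases the lowest, with no overlap.

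Adamts10 fell in Nfib-floxed against RPR2 metastases (-4.62 ± 0.60, adjusted p = 0.00408). This call held in all 18 alternatives tried, with adjusted p from 0.00144 to 0.0422. The gene rose in RPR2 metastases against RPR2 lung tumors (3.14 ± 0.55, adjusted p = 0.00837), a call lost without the RPR2 metastasis of JHK1373 (adjusted p = 0.0515) or JHK1394 (0.1001). In Nfib-floxed mice the same tissue contrast was -2.17 ± 0.55 and did not pass (adjusted p = 0.246). The genotypes differed in it: the interaction was -5.31 ± 0.77 (adjusted p = 0.0179). With mouse as a block the interaction was -5.70 and no longer passed (adjusted p = 0.0899). It was also lost without the Nfib-floxed metastasis of JHK1398 (0.0711), the RPR2 metastasis of JHK1373 (0.0598) or JHK1394 (0.0864), or the RPR2 lung tumor of JHK1373 (0.0558).

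Adamts17 had 6.45 and 6.21 TPM in Nfib-floxed metastases, against 0.78 and 0.74 TPM in RPR2 metastases. Lung tumors lay between the metastases, at 2.12, 1.64 and 3.05 TPM in Nfib-floxed and 4.46, 3.64 and 2.87 TPM in RPR2 mice. The gene rose in Nfib-floxed against RPR2 metastases (2.06 ± 0.45, adjusted p = 0.0473). The call is narrow: it was kept without the Nfib-floxed lung tumor of JHK1398 (adjusted p = 0.0392) and lost without any of the other 9 libraries, with adjusted p from 0.0554 without the Nfib-floxed lung tumor of JHK1399 to 0.235 without the RPR2 metastasis of JHK1394. The interaction was 2.58 ± 0.58 (adjusted p = 0.118).

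The other proteases of this group were low. Adamts6, a relative of Adamts10, reached 1.25 and 1.10 TPM in RPR2 metastases and 0.18 to 0.82 TPM elsewhere. Adamts19 stayed at or under 0.042 TPM.

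**Figure D3:**
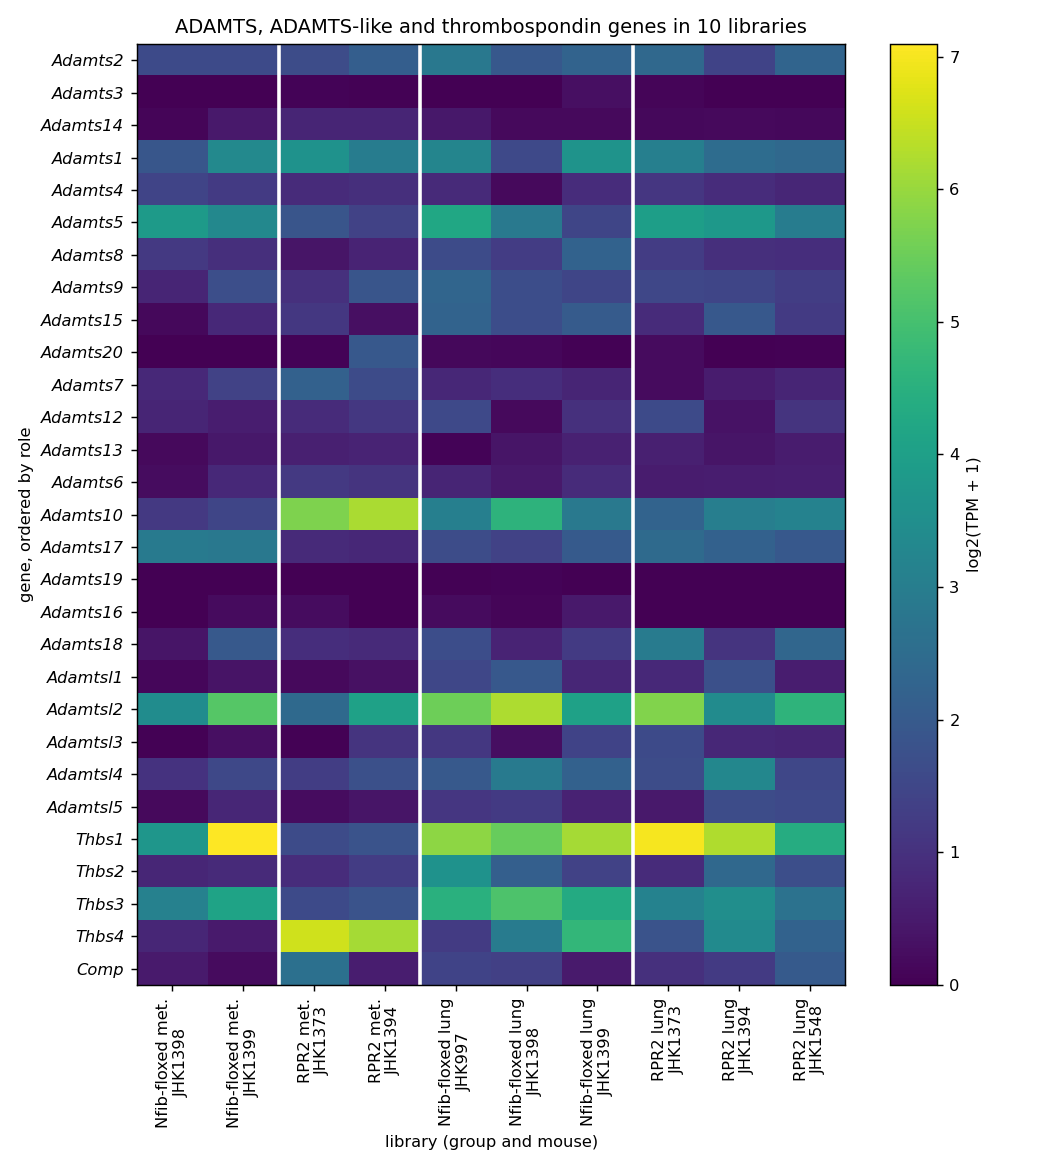
Levels of all 29 genes (rows, by role) in the 10 libraries (columns, by group) on a log2(TPM + 1) colour scale. Most rows are dark, at low levels, throughout, and the columns of the RPR2 metastases stand out at Thbs4 and Adamts10.

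Among proteases that cleave proteoglycans, Adamts5, an aggrecanase and versicanase, had 13.5 and 8.97 TPM in Nfib-floxed metastases, against 2.69 and 1.61 TPM in RPR2 metastases. In the lung it had 17.6, 6.29 and 1.79 TPM in Nfib-floxed and 14.8, 12.7 and 6.86 TPM in RPR2 tumors. The metastases of the genotypes did not overlap, but no comparison of Adamts5 passed: the log2 difference was 1.95 ± 0.76 between metastases (adjusted p = 0.279) and -1.94 ± 0.70 between tissues in RPR2 mice (adjusted p = 0.152). Adamts1, which cleaves the same substrates and lies 53.1 kb from Adamts5 on chromosome 16, had 2.72 and 9.04 TPM in Nfib-floxed and 11.2 and 6.94 TPM in RPR2 metastases, and 1.97 to 11.4 TPM in lung tumors, with overlapping groups.

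Adamts8, Adamts9 and Adamts15 stayed between 0.12 and 4.01 TPM in every library and were not called. Adamts15 had its highest group mean in Nfib-floxed lung tumors (3.00 ± 0.79 TPM, SD, n = 3), against 0.12 and 0.76 TPM in Nfib-floxed metastases (-1.49 ± 0.51, adjusted p = 0.402). Adamts8 and Adamts15 are neighbours 20.1 kb apart on chromosome 9. Adamts4 reached 1.76 TPM at most. Adamts20, which acts on versican in mouse skin pigmentation, had 2.90 TPM in the RPR2 metastasis of JHK1394 and at most 0.15 TPM in the other 9 libraries.

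Adamts7 and Adamts12, which cleave Comp, were low. Adamts7 had 0.76 and 1.64 TPM in Nfib-floxed metastases, against 3.58 and 2.06 TPM in RPR2 metastases, and 0.16 to 0.90 TPM in lung tumors. It reached the mean needed for a test through the RPR2 metastases, and was not called in RPR2 metastases against lung tumors (1.41 ± 0.44, adjusted p = 0.0996). Adamts12 had at most 2.02 TPM.

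Of the procollagen N-proteinases, which remove the amino-terminal propeptide of fibrillar collagens, Adamts2 had 2.04 and 2.02 TPM in Nfib-floxed and 2.15 and 3.37 TPM in RPR2 metastases, and 1.69 to 6.19 TPM in lung tumors. It was not called, and its Nfib-floxed metastases lay below all Nfib-floxed lung tumors. Adamts14 had 0.67 and 0.65 TPM in RPR2 metastases and at most 0.40 TPM elsewhere. Adamts3 stayed at or under 0.21 TPM. Adamts18 had 0.32 and 2.96 TPM in Nfib-floxed metastases, 0.91 and 0.80 TPM in RPR2 metastases, and 0.65 to 6.66 TPM in lung tumors. Adamts16 had at most 0.39 TPM.

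Adamts13, the protease that cuts von Willebrand factor, stood at 0.05 to 0.64 TPM. Its substrate Vwf had 332 and 1272 TPM in Nfib-floxed metastases, against 16.8 and 19.8 TPM in RPR2 metastases, and 510 to 1655 TPM in lung tumors of both genotypes. The RPR2 metastases were the only low libraries, as for Thbs1. Vwf rose in Nfib-floxed against RPR2 metastases (5.08 ± 0.62, adjusted p = 0.0029). It fell in RPR2 metastases against RPR2 lung tumors (-4.95 ± 0.57, adjusted p = 0.00137).

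The most abundant ADAMTS-like gene was Adamtsl2, which encodes a fibrillin-binding protein that modulates TGF-beta availability and whose mutation in people causes geleophysic dysplasia. It had 9.91 and 36.2 TPM in Nfib-floxed metastases, against 4.37 and 15.6 TPM in RPR2 metastases. In the lung it had 45.3, 73.3 and 15.6 TPM in Nfib-floxed and 52.4, 9.77 and 23.3 TPM in RPR2 tumors. The ranges of the 2 genotypes overlapped in each tissue, and it was not called (1.09 ± 0.92 between metastases). Adamtsl2 lies 69.8 kb from Adamts13 on chromosome 2.

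Adamtsl4, a microfibril protein of the lens zonule, had 1.04 and 1.90 TPM in Nfib-floxed and 1.46 and 2.31 TPM in RPR2 metastases, and 1.84 to 8.72 TPM in lung tumors. Adamtsl1 was at most 0.29 TPM in the 4 metastases and 0.48 to 2.90 TPM in the 6 lung tumors, without overlap. Its mean was under 1 TPM, so it was not tested. It lies on chromosome 4, 2808 kb from Nfib. Adamtsl3 and Adamtsl5 reached 2.01 and 2.14 TPM at most, both in RPR2 lung tumors.

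Counted over the 17 genes tested, 3 were called between Nfib-floxed and RPR2 metastases, 1 higher (Adamts17) and 2 lower (Adamts10 and Thbs4). Of all genes tested, 2.04% were called there, 1.13% higher and 0.91% lower. The median log2 difference was -0.23 over the 17 genes and 0 over all genes. Between RPR2 metastases and RPR2 lung tumors, 3 were called, 2 higher (Adamts10 and Thbs4) and 1 lower (Thbs1), against 5.61% of all genes, 2.04% higher and 3.57% lower. The medians were -0.57 and -0.15.

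Between Nfib-floxed and RPR2 lung tumors limma called none of the 17 genes and 0% of all genes. At an unadjusted p under 0.05 stood 1 of the 17, Thbs3, and 1230 of all genes. The medians were 0.33 and -0.10. Between Nfib-floxed metastases and Nfib-floxed lung tumors limma called none of the 17 and 0.123% of all genes, with 6 of the 17 and 1455 of all genes at an unadjusted p under 0.05, and medians of -0.74 and -0.05. The interaction was called for 1 of the 17, Adamts10 on the lower side, against 0.581% of all genes, 0.49% higher and 0.0903% lower. Its medians were -0.61 over the 17 genes and 0.11 over all genes. The comparisons share libraries, so their calls are not independent of each other.

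**Figure D4:**
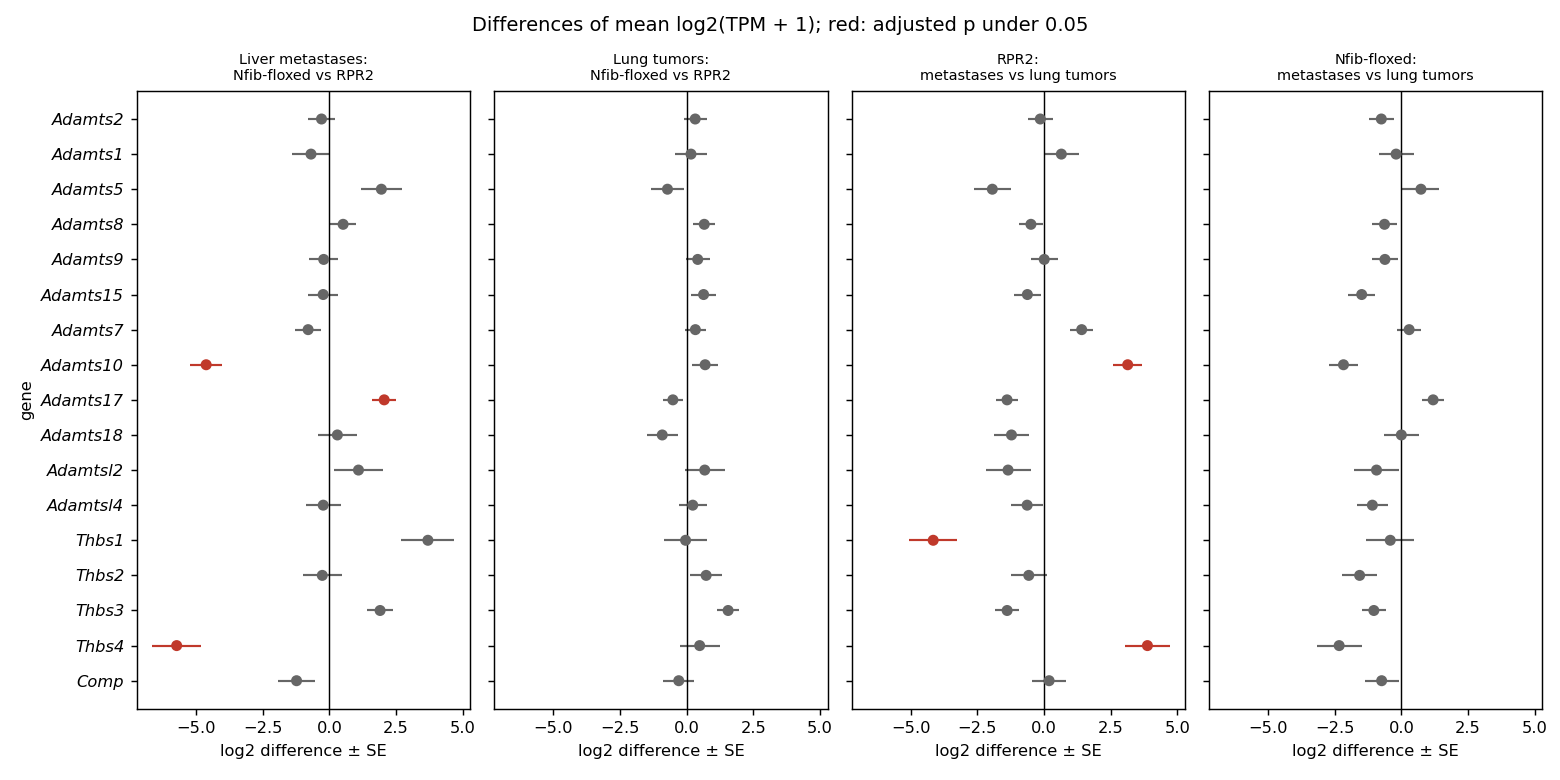
Differences of mean log2(TPM + 1) with standard errors for the 17 genes tested, in the 4 comparisons of groups. Adamts10, Adamts17 and Thbs4 are marked as called between metastases, Adamts10, Thbs4 and Thbs1 between RPR2 tissues, and none in the other panels.

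Genes that work with the family were read from 5 lists. Of 14 substrates and matrix partners tested, Vwf alone was called. Besides the calls given above, the limma interaction of Vwf passed (4.49 ± 0.80, adjusted p = 0.0408). The median log2 difference of the list was -0.99 between Nfib-floxed and RPR2 metastases and 0.21 between RPR2 metastases and lung tumors. Versican, a substrate of Adamts1 and Adamts5, had 5.84 and 1.72 TPM in Nfib-floxed metastases and 13.4 and 13.6 TPM in RPR2 metastases and was not called. Fibrillin 1 had 8.40 and 2.51 TPM in Nfib-floxed metastases and 11.9 and 8.17 TPM in RPR2 metastases, again without a call.

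In RPR2 metastases against RPR2 lung tumors, 3.57% of all genes were called lower. In each of 3 further lists 1 gene was called lower. Of 11 inhibitors and processing enzymes this was Timp3, the matrix-bound inhibitor of ADAMTS proteases (-2.71 ± 0.66, adjusted p = 0.0385). It had 7.91 and 6.62 TPM in RPR2 metastases, against 34.6, 124 and 34.2 TPM in RPR2 lung tumors, and 3.75 and 17.0 TPM in Nfib-floxed metastases. Of 14 thrombospondin receptors it was Itga3, an integrin subunit (-2.12 ± 0.47, adjusted p = 0.0247). Of 22 ADAM and MMP proteases it was Mmp12, the macrophage elastase (-2.49 ± 0.57, adjusted p = 0.0303). Among 15 other genes with thrombospondin repeats none was called in any of the 5 comparisons.

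Markers of host cells moved with the same groups. The hepatocyte list summed to 6663 to 6825 TPM in RPR2 metastases, against 141 to 390 TPM in RPR2 lung tumors. All 8 of its genes were higher in RPR2 metastases, 7 of them called. In Nfib-floxed metastases the list summed to 67.5 to 2065 TPM. All 8 genes were lower there than in RPR2 metastases, 2 of them called. Kupffer cell markers summed to 10.7 to 14.0 TPM in Nfib-floxed metastases, against 86.4 to 132 TPM in RPR2 metastases. All 5 were lower in Nfib-floxed metastases, 3 of them called. In RPR2 lung tumors they summed to 6.56 to 24.7 TPM. Club cell markers summed to 18.8 to 189 TPM in RPR2 metastases, against 8573 to 59186 TPM in RPR2 lung tumors. The RPR2 metastases are the libraries in which Thbs4 and Adamts10 were highest and Thbs1 and the sum of neuroendocrine markers lowest. In all other libraries that sum was mostly Calca. The part of the host cells, and of the neuroendocrine cells, in the levels of Thbs4, Adamts10, Adamts17 and Thbs1 was not tested.

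Marker sums of fibroblasts and stellate cells overlapped between the metastases of both genotypes, while those of mural cells and endothelium did not. Fibroblast markers summed to 127 to 266 TPM in Nfib-floxed and 170 to 198 TPM in RPR2 metastases. Hepatic stellate markers summed to 41.5 to 63.6 TPM in Nfib-floxed and 39.7 to 63.7 TPM in RPR2 metastases. Most genes of both lists were lower in Nfib-floxed metastases, with none called. The median log2 difference was -0.55 for fibroblasts (9 of 11 below 0) and -1.19 for stellate cells (3 of 4). Against this, Dcn had 206 and 53.6 TPM in Nfib-floxed and 46.3 and 41.1 TPM in RPR2 metastases. Hgf had 29.4 and 35.7 TPM in Nfib-floxed and 5.90 and 6.76 TPM in RPR2 metastases. The overlaps rested on these genes. Without Dcn the fibroblast sums, and without Hgf the stellate sums, were higher in RPR2 metastases, with no overlap. Mural and smooth muscle markers summed to 174 to 183 TPM in Nfib-floxed and 205 to 299 TPM in RPR2 metastases. Endothelial markers, from a cell type that makes Vwf, summed to 50.1 to 50.9 TPM in Nfib-floxed and 66.3 to 70.4 TPM in RPR2 metastases, with none of 9 called. Those of liver sinusoidal endothelium summed to 2.24 to 10.4 TPM in Nfib-floxed and 19.9 to 20.2 TPM in RPR2 metastases. All 3 tested were lower in Nfib-floxed metastases, 1 of them called. Both endothelial sums were higher in RPR2 metastases, where Vwf and Thbs1 were lower. The gap in the general endothelial sum rested on Egfl7, at 19.2 and 22.0 TPM in Nfib-floxed and 35.0 and 35.9 TPM in RPR2 metastases. Of the 9 genes of that list, 7 were lower and 2 higher in Nfib-floxed metastases (median log2 difference -0.26). The part of endothelial cells in the levels of Vwf and Thbs1 was not tested. Of the tendon markers, Tnmd was at 0 in all 4 metastases and Fmod at 0 and 0.09 TPM in RPR2 metastases, while Scx had 16.4 and 2.49 TPM in Nfib-floxed and 25.5 and 75.9 TPM in RPR2 metastases. Platelet and megakaryocyte markers, from cells rich in Thbs1, summed to 5.10 to 38.4 TPM in Nfib-floxed and 17.4 to 54.1 TPM in RPR2 metastases, against 34.3 to 54.0 TPM in Nfib-floxed and 20.8 to 47.5 TPM in RPR2 lung tumors.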

How the data were processed

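RNA was sequenced from macrodissected, snap-frozen tumors after polyA selection with a NEBNext Ultra II kit, per the labels' protocols. Tools named in the submitters' processing notes are Salmon 0.12.0, bcl2fastq 2.20 and R 4.1.0, and the build is GRCm38. The values the authors deposited are TPM, with a total of 1000000 in each library. The sources used here give neither strand nor annotation version, so reads from sequence shared by genes on opposite strands cannot be told apart.

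From these values, limma 3.58.1 (R 4.3.3) was fitted with a mean trend to log2(TPM + 1) of 15503 genes in 4 groups of 10 libraries, two-sided, for 5 comparisons. The fit had 6 residual and 4.56 prior degrees of freedom. The interaction is the metastasis minus lung tumor difference in Nfib-floxed minus that in RPR2 mice. Libraries within a group come from separate mice, so p-values measure the spread between mice within groups. The lung tumor and metastasis groups of a genotype share mice, whose tumors the main fit took as independent. The labels pair a lung tumor and a metastasis in 4 mice. Deviations from group means correlated at -0.0229, -0.008, 0.0426 and 0.0489 within them, and the block was mouse, random for genotype contrasts (correlation 0.0509) and fixed otherwise. No 2 libraries were identical.

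All genes of the family are named, with every library's value where a gene was called or averaged at least 20 TPM and for others where groups are described. From the lists of related genes, up to 3 called genes with the smallest adjusted p are named; versican and fibrillin 1 were chosen after their values were seen. The members, the 5 lists of related genes and the 18 marker lists were chosen with earlier results of these data known. Positions come from the GENCODE annotation of GRCm38 and promoters from RefSeq. The fit was tested on simulated data. Python 3.11.15, pandas 2.3.3, numpy 2.4.6 and matplotlib 3.10.9 were used for the other steps. The alternatives tried were median centring, quantile normalization, a pseudocount of 0.1 or 5, a filter at a mean of 5 TPM or none, the mouse block and each library left out. A fit without the lung tumors of JHK1394 and JHK1398 was chosen after seeing the data.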

Additional observations from a re-analysis of the deposited data

Results flagged for a closer look

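In 4 of the 17 genes tested the metastasis minus lung tumor difference had one sign in both Nfib-floxed mice and the other sign in both RPR2 mice. The share of all genes with this pattern was not counted, so the 4 are not shown to exceed it. The difference between genotypes was tested as the interaction in limma, and Adamts10 alone passed.

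Adamts10 had log2 differences of -3.41 (JHK1398) and -1.39 (JHK1399) in Nfib-floxed mice, against 3.45 (JHK1373) and 3.16 (JHK1394) in RPR2 mice, with an interaction of -5.31 (adjusted p = 0.0179). Thbs4 had -2.20 and -4.20 in the same Nfib-floxed mice, against 4.77 and 2.72 in the RPR2 mice, with an interaction of -6.21 (adjusted p = 0.0551). Adamts17 had 1.496 and 0.83 in Nfib-floxed mice, against -1.62 and -1.42 in RPR2 mice, with an interaction of 2.58 (adjusted p = 0.118). Adamts5 had 0.99 and 1.84 in Nfib-floxed mice, against -2.10 and -2.39 in RPR2 mice, with an interaction of 2.67 (adjusted p = 0.363).

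Adamts6 and Adamts13, which averaged under 1 TPM, had the same pattern, and their differences were not tested. Adamts6 had -0.24 and -0.04 in Nfib-floxed mice, against 0.62 and 0.50 in RPR2 mice, with means -0.70 apart. Adamts13 had -0.22 and -0.21 in Nfib-floxed mice, against 0.02 and 0.30 in RPR2 mice, with means -0.37 apart.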

How the results depend on the processing

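None of the differences followed for single genes changed sign in any alternative. Between Nfib-floxed and RPR2 metastases, leaving out 1 library at a time gave 1 to 3 called genes of the family, where all libraries gave 3. Between RPR2 metastases and RPR2 lung tumors it gave 0 to 3, where all libraries gave 3, and 1 was called without the lung tumors of JHK1394 and JHK1398. For the interaction it gave 0 to 2, where all libraries gave 1. With mouse as a replicate block the interaction was called for 0 genes of the family, and with a pseudocount of 5 for 2, Adamts10 and Thbs4 (-4.37, adjusted p = 0.0453). The block changed no other call of the family. In RPR2 metastases against lung tumors Thbs1 was also lost with a pseudocount of 5 (adjusted p = 0.0635) and with no filter (0.0749), and Thbs4 with no filter (0.0749). Between metastases Adamts17 was lost with no filter (0.0739) and without the same 2 lung tumors (0.0526), and was left out by the filter of 5 TPM. The comparisons of lung tumors, and of Nfib-floxed metastases with lung tumors, gave 0 in every alternative. The causes were not tested. Between RPR2 metastases and lung tumors, quantile normalization gave 4 called genes of the family, 3 higher and 1 lower. It moved the median of all genes in that comparison to 0.05, against -0.15. With 2 or 3 libraries in a group and unknown depth, a gene that missed the threshold is not shown to be equal.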
